A study of Xenopus tropicalis with 4 samples.

Results

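The stage 8 map of E2F1 holds 13216 reproducible regions on the Xenopus tropicalis genome. They were made by joining the peaks of 2 replicate libraries that shared at least 1 bp, and they are 55.6% of the 23751 regions found in either list. The series has 4 chromatin immunoprecipitation libraries, of which these 2 carry E2F1. The other 2 libraries map another factor and are not used here. The samples were whole embryos at stage 8, a blastula stage in which the embryo is still dividing rapidly. Their genotype is given as E2F1 Rescue, they were injected with E2F1 mRNA together with an MO, the usual short form of morpholino oligonucleotide, and the labels do not name the MO's target. The antibody was against the HA tag (Sigma, H6908), so the map shows the tagged protein made from injected mRNA and not the embryo's own E2F1. No label says that the replicates came from separate batches of embryos, so the spread between them may be technical.

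E2F proteins pair with DP proteins and bind the promoters of genes that a cell needs to copy its DNA and divide. Retinoblastoma family proteins hold them in check, and cyclin-dependent kinases release them when a cell commits to a new cycle. Frog blastula cells cycle on maternal stores with almost no pause, and most genes of the embryo's own genome are switched on after a series of such divisions.

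Each peak comes with the authors' fold, the signal at its summit over the local background of that library. Folds are given below for replicate 1 and then replicate 2. Pileup is the number of sequenced fragments stacked over a summit, solved from the authors' fold and p-value. The local background may include a peak's own fragments, so fold, pileup and background are not independent. In whole embryos, binding in few cells and weaker binding in all cells cannot be told apart.

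Peaks of high fold recurred in the other replicate and peaks of low fold often did not. The lists held 16770 and 20385 peaks, with a median fold of 5.44 and 5.37 and a median pileup of 16 in each. With each list sorted by fold into 10 bins of equal size, 54.6% of the lowest bin of replicate 1 and 32.8% of replicate 2 overlapped the other list. In the highest bin 99.9% and 99.8% did. Peaks missing from the other list were also shallower, with a median pileup of 11 in each replicate, against 18 and 21 for peaks present in both. A pileup of 11 carries a large counting error, so a weak peak missing from a list does not show that E2F1 was absent there.

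**Figure D1:**
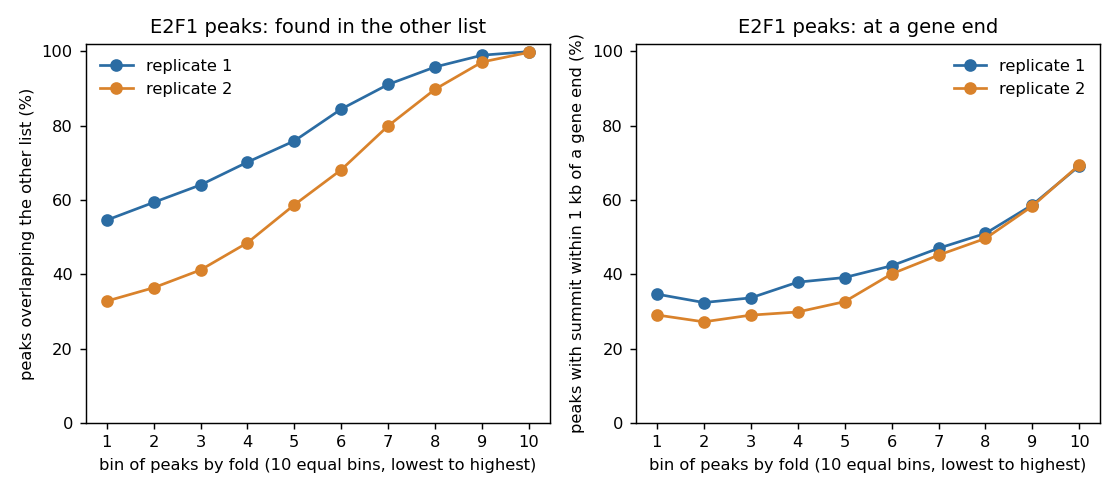
Peaks of each E2F1 list sorted by fold into 10 bins of equal size (horizontal axis), with the percent of peaks that overlap the other list (left) and the percent with a summit within 1 kb of a protein-coding gene end (right). Both shares rise with fold: overlap reaches 99.9% and 99.8% in the top bin, and gene-end position reaches 69.2% and 69.4%.

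Within the joined regions the summits of the replicates lay close together. Joining requires overlap of peaks whose median widths were 426 and 413 bp, so this closeness is partly set by construction. The median distance between the summits of a pair was 57 bp, and it was at most 100 bp in 71% of regions. The folds differed by less than 1.5 times in 92.7% of regions. The regions had a median width of 580 bp, from 268 to 2346 bp, and covered 0.578% of the chromosome sequence.

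More E2F1 regions lay at the ends of genes than in any other class of position. A region counts as lying at a gene end where its summit is no more than 1 kb from the start or the finish that the annotation gives a protein-coding gene. The gene table gives no strand, so a gene end stands in for the promoter and the start of a gene cannot be told from its finish. By this measure 51.4% of the regions lay at gene ends, and the separate lists gave 44.6% and 41% (42.8% ± 2.51, SD, n = 2). A further 24.4% lay inside genes away from their ends, 8.85% outside genes but within 10 kb of an end, and 15.2% farther out. The part of the chromosome sequence in each class was not measured, so these shares have no background.

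Gene-end regions differed from the others in reproducibility, width and height. Of the gene-end peaks, 91.7% of replicate 1 and 82% of replicate 2 recurred in the other list, against 67.1% and 52% of the peaks more than 10 kb from genes. Gene-end regions were wider, with a median of 683 bp against 478 to 494 bp in the other classes on chromosomes. Their median folds of 6.16 and 6.72 stood above those inside genes, 5.51 and 5.75. In both replicates the order was the same. From the lowest to the highest of 10 equal bins of regions by fold, the share at gene ends went from 39.9% to 73.1%, while the share inside genes went from 32.2% to 11.6%.

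Summits lay close to the annotated end and mostly just inside the gene. Among 5837 regions with 1 gene end within reach, the median summit lay 65 bp inside the gene. The middle of the distribution, from the lower to the upper quartile, ran from 60 bp outside (signed offset -60) to 191 bp inside, and 66.7% of these summits were within 200 bp of the end. Inside the gene lay 64.4% of them. Among genes of at least 10 kb, 5508 carried E2F1 at 1 end and 51 at both, so 99.1% of the carriers had it at a single end.

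**Figure D2:**
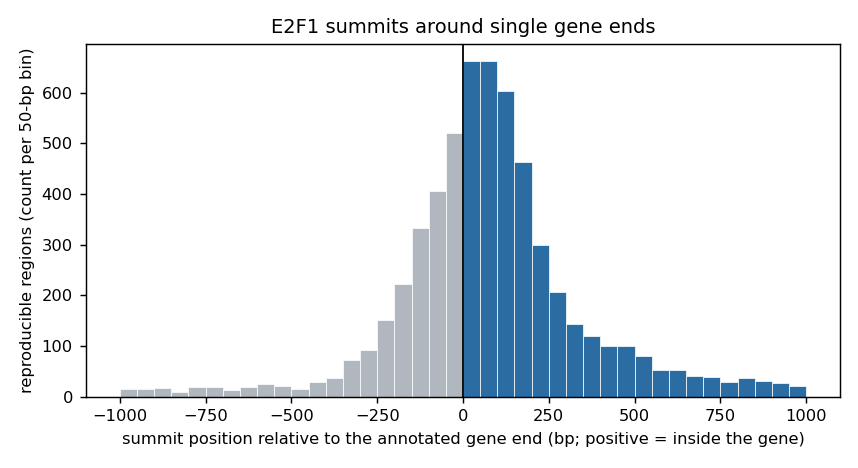
Number of reproducible E2F1 regions (vertical axis) by signed distance in bp from their summit to the annotated end of the only protein-coding gene within 1 kb (horizontal axis, positive values inside the gene). The tallest bin, 50 to 100 bp inside the gene, holds 663 regions, and counts fall away on both sides.

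Places where the ends of neighbouring genes lie close together carried E2F1 more often than lone gene ends. Of 27737 lone ends of named genes, 19.7% had a region within 1 kb. Each gene has a pair of ends and mostly carries E2F1 at 1 of them, so shares are also given by gene. A region within 1 kb of the ends of neighbouring genes counts for each of them. The share of genes with a close neighbour is thus raised by construction, and by how much was not tested. By gene, 1976 of 3077 named genes with an end within 1 kb of another gene's end carried E2F1 (64.2%), against 5084 of the other 12516 (40.6%). Spacing went with this share: 60.1% of pairs of ends up to 200 bp apart and 60.5% of those 200 to 500 bp apart had a region, but 22.6% of those farther apart within the 1 kb limit. In all, 928 regions, 13.7% of those at gene ends, lay at the ends of more than 1 gene, and they cannot be assigned to a single gene.

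Of 21749 protein-coding genes on the 10 chromosomes, 34.9% carried E2F1 at an end. The share was 45.3% among the 15593 genes with a name and 8.71% among the 6156 known only by a locus number. Named genes shorter than 2.5 kb carried it in 27.7% of cases, those of 10 to 20 kb in 49.2%, and those over 100 kb in 39.6%. The share of named genes is the background beside which the functional lists below are given. Of the 7060 named carriers, 1652 had a region also at another gene's end. Among higher lists this held for 41 of 97 ribosome biogenesis, 29 of 83 DNA replication and 9 of 59 maternal transcription factor carriers. Among lower lists it held for 22 of 109 solute carrier, 1 of 42 ion channel and 0 of 28 earliest zygotic carriers. The part of shared ends in the shares was not tested. No test was run on any list, and nothing in a count shows that a list differs from other genes beyond these libraries.

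E2F1 was spread over all chromosomes at similar density. It ranged from 8.58 regions per Mb on chromosome 5 to 11.3 on chromosome 10, the shortest and the most gene-dense. In both replicates chromosome 10 also had the most peaks per Mb, 13.7 and 16.9. The share of regions at gene ends was lowest on chromosome 7 (46.2%) and highest on chromosome 10 (60.7%). Over the 10 chromosomes, gene density had a Spearman correlation of 0.782 with region density and of 0.770 with the gene-end share, given as a description of chromosomes that share the same libraries. Among named genes the share with E2F1 varied less, from 41.8% on chromosome 7 to 47.4% on chromosome 6.

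**Figure D3:**
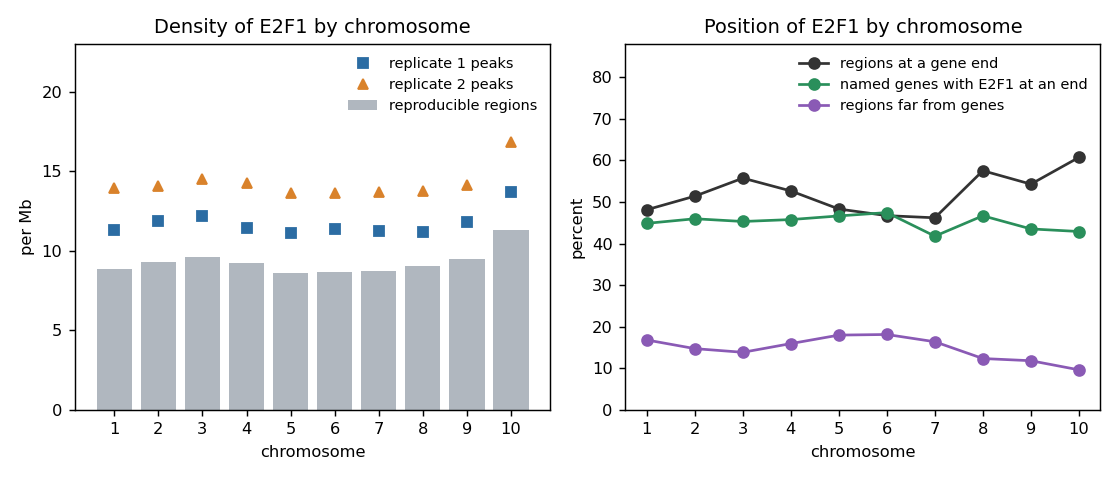
Left, E2F1 regions (bars) and peaks of each replicate (points) per Mb for chromosomes 1 to 10. Right, percent of regions at a gene end, percent of named genes with E2F1 at an end, and percent of regions more than 10 kb from any gene. Chromosome 10 has 11.3 regions per Mb and 60.7% of its regions at gene ends, while the share of named genes stays between 41.8% and 47.4%.

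The fold of E2F1 regions was higher near chromosome ends. In the outermost 2.5 Mb the median folds were 7.35 and 8.01, against 5.60 and 5.90 more than 40 Mb from an end. Chromosome by chromosome the interior was taken as more than 40 Mb from an end, except on chromosome 10, which is too short and where it was taken from 20 Mb. In both replicates the outer value was higher on 10 of 10 chromosomes so compared. The local background moved the other way, with medians of 1.55 and 1.83 fragments in the outermost 2.5 Mb and 2.36 and 2.61 in the interior, and it was lower near the ends on 10 of 10 chromosomes in the same comparison. The summit pileup differed little: its medians were 19 and 23.5 near the ends and 18 and 21 inside, and it was higher near the ends in both replicates on 5 of 10 chromosomes. Of the regions in the outermost 2.5 Mb, 20.4% were among the top 5% of the map by fold, but 8.15% were by pileup. The interior had 1.96% and 3.63%. Gene-end regions alone showed the same order of folds, with medians of 8.40 and 9.05 near the ends and 5.73 and 6.13 in the interior. The outermost 2.5 Mb also held more genes, 25.8 per Mb against 12.4, and 62.4% of its regions lay at gene ends, against 47.6%. The part of gene density or background in the fold was not tested. Named genes carried E2F1 at rates of 48.8% in the outermost 2.5 Mb and 44.5% in the interior.

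**Figure D4:**
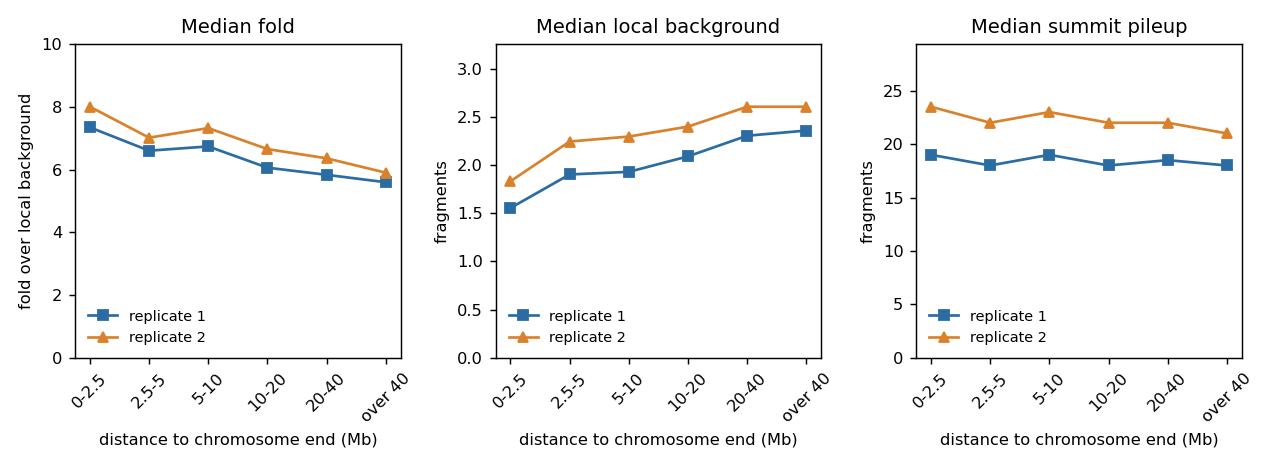
Median fold (left), local background in fragments (middle) and summit pileup in fragments (right) of E2F1 regions by distance to the nearer chromosome end, with a line for each replicate. Fold is highest in the outermost 2.5 Mb (7.35 and 8.01) where the background is lowest (1.55 and 1.83), and pileup changes little.

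The highest region of the map lay beside a small nuclear RNA locus on chromosome 8 (118054823 to 118055351, xenTr10). Its folds were 32.3 and 33.4, with pileups of 798 and 1005 fragments over local backgrounds of 23.8 and 29.1. The locus has only a number for a name. Small nuclear RNA genes occur in near-identical copies, and the handling of reads that match several places is not stated, so its height is uncertain.

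Most of the next regions lay at protein-coding genes. They were at znf250, a zinc finger gene (20.3 and 22.8; chromosome 6, 6706483 to 6707024), and tonsl, which acts at stalled replication forks (19 and 22.5; chromosome 6, 152186034 to 152186544). Then came cars1, which charges the cysteine tRNA (19.5 and 21), srrt, which works in RNA processing (18.9 and 23.9), and exosc2, a subunit of the RNA exosome (19.1 and 19.8). Further down were adar, an RNA-editing enzyme (18.2 and 22.7), csnk2a1, the catalytic subunit of casein kinase 2 (18.2 and 20.6), the nuclear import factor ipo7 (19 and 19.3) and tmem177 (19 and 18.6). All had their summits close to a gene end, from 6 bp at srrt to 373 bp at tmem177. The region in pde3a, a phosphodiesterase gene, was the exception among the protein-coding places: it lay 43069 bp from the nearest end, with folds of 20.2 and 18.9.

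The highest regions of the remaining chromosomes were at genes too. They were sub1, a transcription coactivator, on chromosome 1 (17.3 and 19), naa50, an acetyltransferase subunit, on chromosome 2 (17.9 and 19.4), gpn1, a GTPase needed for RNA polymerase II import, on chromosome 5 (16.4 and 19.7) and casp2, a caspase, on chromosome 7 (17 and 18.3).

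A gene-poor stretch of chromosome 9 held 3 of the 15 highest regions. The stretch between 55611966 and 55909437 carried 9 regions, 8 of them outside genes and more than 10 kb from an end. The tallest, 55706590 to 55707744, lay 156034 bp from the nearest gene end. Its folds were 18.6 and 19.9, its pileups 796 and 973, and its local background 41.9 and 48 fragments. Another, 55789641 to 55790080, had folds of 18.8 and 20.7 over a background of 1.13 and 1.37. The first of the stretch, 55611966 to 55612395, had 15.1 and 21.05 with pileups of 31 and 51. Elsewhere, the region of chromosome 3 from 3579751 to 3580524 lay 97087 bp from any gene end, with folds of 15.8 and 18. The 9 regions of chromosome 9 differed in pileup far more than in fold. Their local background also differed, from 1.13 to 41.9 fragments in replicate 1 and from 1.37 to 48 in replicate 2. It may include a region's own fragments, which would hold down the fold of a tall stack. Whether reads from repeated sequence enter these stacks was not tested.

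The widest regions were broad and not high. The widest of all, 2346 bp, lay 11607 bp from any gene on chromosome 2, with folds of 4.74 and 5.44. Behind it came the ends of brd2 and mhc2a (5.84 and 4.03), hmgn1, a nucleosome-binding protein gene (6.99 and 5.59), fzd7, a Wnt receptor gene that is maternally expressed (5.45 and 6.76), and kmt2a, a histone methyltransferase gene (5.39 and 4.85).

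Of the genes for copying DNA, 83 of 93 (89.2%) had E2F1 at an end, against 45.3% of named genes. Replicates 1 and 2 alone gave 90.3% and 92.5%, against 48.3% and 53.3% of named genes. The median of the members' mean folds was 9.50, the highest of the 34 lists, against 6.49 for all named genes with E2F1. The highest members were tonsl and, next, cdc6, which loads the replicative helicase (pileups of 127 and 181), and rrm1, which makes deoxynucleotides (pileups of 78 and 85). Of the 10 members without E2F1 at an end, asf1a, mcm3 and timeless had a region inside the gene, while dhfr, mcm6, rrm2b and top1.2 had none within 50 kb. These 7 were named after their values were seen.

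**Figure D5:**
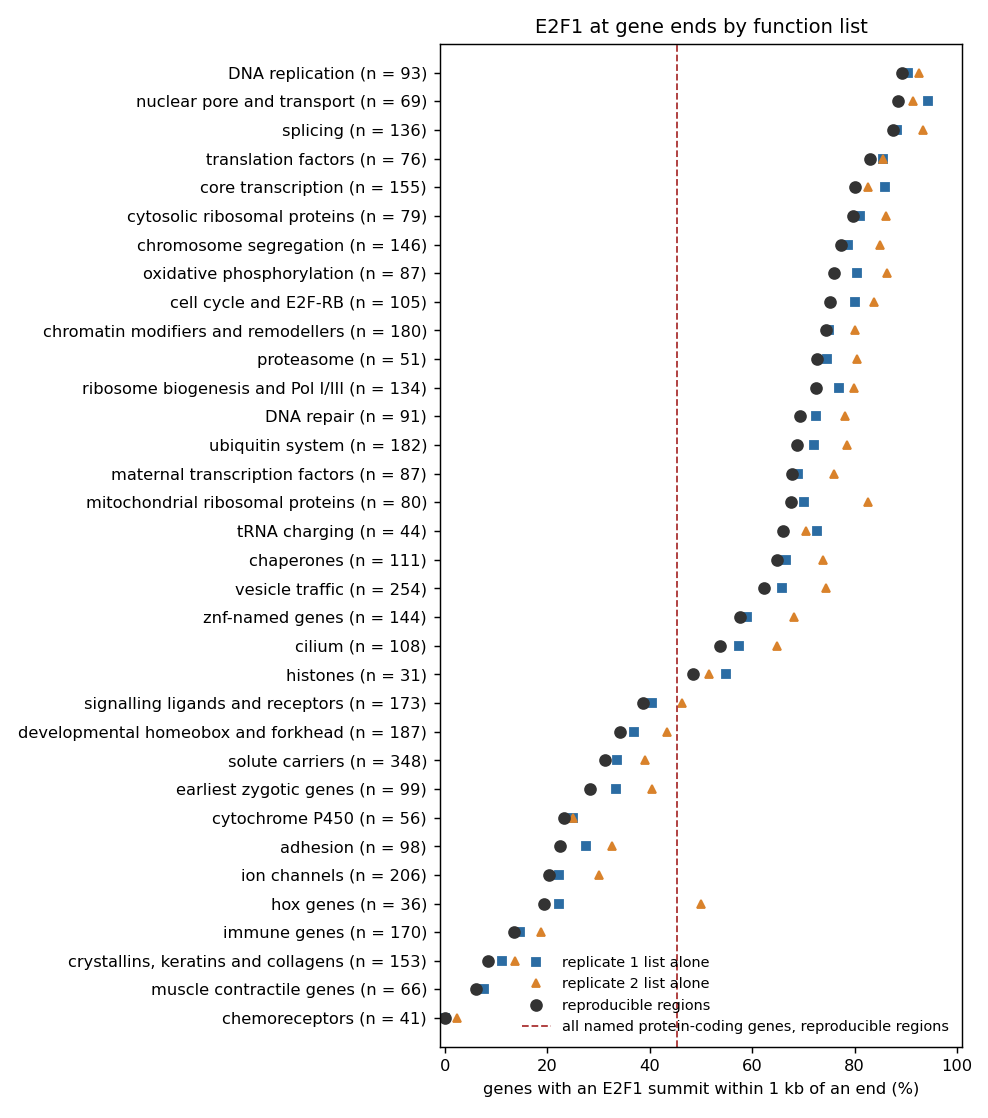
Percent of genes of each function list with an E2F1 summit within 1 kb of an end, from reproducible regions and from each replicate list alone. The dashed line is the 45.3% of all named protein-coding genes from reproducible regions. In the lists of replicates 1 and 2 alone that share was 48.3% and 53.3%. DNA replication (89.2%), nuclear pore (88.4%) and splicing genes (87.5%) lie highest, and crystallin, keratin and collagen genes (8.50%), muscle genes (6.06%) and chemoreceptors (0) lowest.

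The cell cycle list had 79 of 105 genes (75.2%) and chromosome segregation 113 of 146 (77.4%). Their leading members were e2f8, an atypical E2F that represses (14.2 and 15.5), cks1b, a kinase subunit whose end lies beside that of shc1 (13.4 and 15.1), and cdkn2d, a kinase inhibitor (12.5 and 17.3). The segregation list, picked by symbol, was led by kif6, a kinesin (14.9 and 15.9), and nsl1, a kinetochore subunit (15 and 14.8). Then came stag3, a cohesin subunit known from meiosis in mammals (14.5 and 14.5). At kif6 the summit lay 387 bp from the end, and a gene with only a locus number shares the place. The place of nsl1 is shared with tatdn3. DNA repair followed with 63 of 91 (69.2%), with high folds at rnf168, a ubiquitin ligase of damaged chromatin (16.3 and 16.7), and at exo1, an exonuclease (14 and 15.2).

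Of 19 chosen genes of the E2F and retinoblastoma network, 17 carried E2F1 at an end, against 45.3% of all named genes. The region at e2f1 (chromosome 10, 41691216 to 41692108) had folds of 10.04 and 12.7 and pileups of 90 and 123. Those at e2f3, an activator like E2F1, were 12 and 12.5 with pileups of 133 and 163. The atypical e2f7 had 9.75 and 13.2 with pileups of 112 and 193, and e2f4 and e2f5, which act mainly as repressors in mammals, had 5.80 and 6.06, and 5.77 and 7.93. Among pocket proteins, rbl1 had 13.5 and 13.5 and rb1 had 6.65 and 8.97, while the nearest region to rbl2 lay 9416 bp away. The partner tfdp1 had 7.79 and 12.7 with the summit 694 bp from the end, and the nearest to tfdp2 lay 23208 bp away. The repressor e2f6 had 9.65 and 11.2, and the folds of e2f1 and e2f3 lay between those of e2f4 and e2f8 in each replicate.

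Chromatin and transcription genes were carriers in most cases. Chromatin modifiers and remodellers had 134 of 180 (74.4%), led by the acetyltransferase kat2a (17 and 17.2), the methyltransferase ehmt1 (15.6 and 16.2) and ing4, a histone reader (14.7 and 15.3). The core transcription machinery had 124 of 155 (80%), led by nelfb, which pauses RNA polymerase II (17.7 and 19.5), the helicase setx (14.6 and 15.2) and the TFIIH subunit gtf2h1 (13.8 and 16.1). Splicing had 119 of 136 (87.5%), led by prpf6 (14 and 17.5), u2af2 (14.3 and 16.3) and prpf3 (13.7 and 16.4), all spliceosome proteins. Nuclear pore and transport genes had 61 of 69 (88.4%), where nup50 (14.9 and 18.3) and nup133 (14.9 and 13.4), both pore proteins, followed ipo7.

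Genes of protein synthesis were also above the background. Translation factors had 63 of 76 (82.9%), led by eif4a3.1 (12.5 and 12.5), eif3a (10.8 and 17.3) and eif3e (10.1 and 14.1). Cytosolic ribosomal proteins had 63 of 79 (79.7%) with a median mean fold of 6.68, and after rps13 and rpl13a the highest was rps3 (12 and 12.3). Ribosome biogenesis had 97 of 134 (72.4%), where rrp1b (16.8 and 16.5) and polr1c (14 and 14.1) followed exosc2. These are a ribosomal RNA processing factor and a subunit of RNA polymerases I and III, and they share their places with hsf2bp and yipf3. The tRNA charging list had 29 of 44 (65.9%), with aars2 (15.6 and 17.6) and gars1 (12.5 and 15.3), both tRNA synthetases, after cars1.

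Mitochondrial genes carried E2F1 often and at modest fold. Mitochondrial ribosomal proteins had 54 of 80 (67.5%), led by mrps21 (16.4 and 16.6), mrpl27, which shares its place with the repair gene eme1 (15.9 and 13.6), and mrpl14 (11.3 and 13). Oxidative phosphorylation had 66 of 87 (75.9%) with a median mean fold of 6.07, below the 6.49 of all named carriers. Its leaders were the respiratory chain subunits ndufv3, beside wdr4 (14 and 12.7), cox7c (12.2 and 11.5) and uqcrc1 (10.3 and 13.5).

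Protein turnover and traffic lists were above the background too. The proteasome had 37 of 51 genes (72.5%), with psmf1, a proteasome inhibitor, highest (20.3 and 17.8), then psmb4 (9.88 and 12.8) and psmg2 beside cep76 (9.89 and 12.5). The ubiquitin system had 125 of 182 (68.7%), led by sumo2 (14.1 and 15.3), usp48 (13.6 and 16.2) and fbxo42 (15.8 and 13.7). Chaperones had 72 of 111 (64.9%), led by dnajc9 (12.6 and 13.6), hsf1 beside bop1 (12.3 and 13.4) and dnaja1 beside aptx (10.1 and 11). Vesicle traffic had 158 of 254 (62.2%), led by vps26c (16.4 and 16.6), stx16 (11.1 and 14.9) and rab43 (11.3 and 11.1).

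Zinc finger, cilium and histone genes were the lists above the background by the least. Genes named znf had 83 of 144 (57.6%), with znf329 (15.6 and 17.5) and znf384 (14.9 and 16.1) after znf250 and without E2F1 at znf148, znf160 and znf177. Such genes form families of close copies, so their counts may share reads. Cilium genes had 58 of 108 (53.7%), led by cfap20 (14.7 and 16.6), tctn3 (14.4 and 14) and tmem107 (15 and 13). At an end arl3, arl6 and b9d2 lacked E2F1, though b9d2 had a region inside the gene. Histone genes had 15 of 31 (48.4%), with high folds at h2bc14 (9.30 and 9.61) and the variant h2az1 (8.21 and 7.81), and without it at h1-3, h1-6 and h1-8. Histone genes also occur in near-identical copies.

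The list of maternal transcription factors, also picked by symbol and not by measured expression, had E2F1 at 59 of 87 genes (67.8%). After tead1, a partner of YAP, came zbtb49 beside lyar (13.3 and 14) and smad4.1, the common partner of receptor-driven Smads (11.9 and 12.8).

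Peaks in a high local background weigh on these shares. Without peaks whose background was over 3 times the lowest of their list, a filter chosen after seeing the data, 32.3% of named genes carried E2F1. DNA replication then had 45.2%, splicing 38.2%, the cell cycle 41% and maternal transcription factors 24.1%, so the last fell below the named genes. Histones, with 12.9%, did as well. Hox genes then had 2.78% and other developmental homeobox and forkhead genes 9.09%. The proteasome then had 66.7% and oxidative phosphorylation 64.4%. The peaks removed were tall: their median pileup was 35 and 41, while that of the remaining peaks was 14 and 15. The filter thus took out tall peaks more than shallow ones. Where a background includes fragments of the peak and of its neighbours, this is partly set by construction. The lower shares therefore do not show that these peaks lay in a background high for other reasons. The parts of peak height and of background in the lower shares were not tested.

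In the list of earliest zygotic genes, picked by symbol and not by measured expression, 28 of 99 (28.3%) had E2F1 at an end. This was a smaller share than the 45.3% of named genes, but most members had a region close by. The list may hold genes that the embryo transcribes later or that the egg also supplies. Within 5 kb of an end the count was 75 of 99 (75.8%), against 54% of named genes at that distance. Of the 99 genes, 84 had a region in the body or up to 10 kb away, and 4 had none within 50 kb. The shares of all named genes at 10 kb and 50 kb were not taken, so these counts have no background. At the ends the folds were low, with a median mean fold of 4.80. Their pileups were not low: medians of 25.5 and 33 stood beside 21 and 25 for all named carriers. The local background was higher, 4.15 and 4.36 fragments against 2.49 and 2.86. Without peaks in a high background 7.07% of these genes carried E2F1 at an end, against 32.3% of named genes. That background may include fragments of the peaks themselves and of regions nearby.

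The highest of these genes were fgf20, a growth factor gene (10.2 and 9.94, summit 155 bp from the end), lefty, a Nodal inhibitor (9.88 and 9.70), hes7.2, a repressor of the Notch pathway (9.43 and 9.99), and the mesendoderm homeobox gene mix1 (9.51 and 9.35, summit 27 bp from the end). Lower were klf2 (8.48 and 8.72), mixer, a relative of mix1 (6.97 and 9.81), and the ventral homeobox gene ventx2.2 (6.79 and 7.04). The Nodal ligand nodal1 had 5.94 and 7.71, the BMP inhibitor chrd.1 had 4.32 and 6.74, and gata3 had 3.51 and 4.47. The replicates differed for chrd.1, which was below the map's median fold of 5.85 in replicate 1 and above that of 6.23 in replicate 2.

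Without E2F1 at an end but with a region inside the gene were bmp4, eomes, gata2, gata4, gata6, otx2, vegt, wnt8a, lhx1 and nodal2. The nearest region lay 1012 bp from hes5.9, 1030 bp from admp, 1097 bp from sox17a, 1282 bp from pou5f3.2, 3287 bp from bix1.1 and 1996 bp from bix1.2. The organizer gene gsc was 7671 bp away, the mesoderm gene tbxt 16872 bp, and sia1, an early Wnt target, 14633 bp. At fgf3, fgf4, nog and wnt8b no region came within 50 kb. The nodal, hes5, ventx and bix genes are clustered copies, so reads and regions near them may be shared. The 3 loci annotated as mir427, the microRNA that clears maternal messages, had none at an end.

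Of the hox genes 7 of 36 had E2F1 at an end (19.4%), against 45.3% of named genes. Within 5 kb the count was 25 of 36 (69.4%), against 54% of named genes. The replicates differed at the ends: 22.2% of hox genes carried E2F1 in the list of replicate 1 and 50% in that of replicate 2. Of named genes, 48.3% and 53.3% did in these lists, so in replicate 2 the hox share was near that of named genes. Among the higher ones were hoxc10 (5.62 and 4.74) and hoxd9 (3.28 and 5.76). At an end hoxa11, hoxa13 and hoxa2 lacked E2F1, though hoxa2 had a region inside the gene. Other developmental homeobox and forkhead genes had 64 of 187 (34.2%), led by the Hox partner pbx3 (12.7 and 13.5), foxm1, an activator of mitotic genes whose end is shared with rhno1 (11.4 and 11.4), and foxj2 (9.79 and 11.8). Among those without it at an end were alx1, which had a region inside the gene, alx4 and ascl3. The list, picked by symbol, also took in ascl3, which is neither a homeobox nor a forkhead gene.

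Signalling, adhesion and membrane genes were below the background. Signalling ligands and receptors had 67 of 173 (38.7%), led by the Wnt co-receptor lrp6 (12.7 and 12.4), the receptor notch1 (11.4 and 12) and the ephrin efna3 (10.4 and 13.3). At an end bmp1, bmp10 and bmp15 lacked E2F1, though bmp1 had a region inside the gene. Solute carriers had 109 of 348 (31.3%), where slc38a10 (11.1 and 11.2) and slc35f5 (10.7 and 10.9) followed slc16a13, whose end lies beside another gene's, and slc10a1, slc10a2 and slc10a4 lacked it. Adhesion genes had 22 of 98 (22.4%), with cdh4 (12.5 and 11.3), itga6 (8.06 and 9.60) and itga8 (7.90 and 9.64) highest. The cadherins cdh1, cdh10 and cdh11 had regions inside the gene and none at an end. Ion channels had 42 of 206 (20.4%), with kcna3 (12.6 and 11.3), kcnh4 (9.48 and 10.9) and cacna1i (8.05 and 9.71) highest. At an end asic1, asic2 and asic4 lacked E2F1, though asic1 had 2 regions inside the gene.

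Genes of late or specialised tissues mostly lacked E2F1 at an end. Cytochrome P450 genes had 13 of 56 (23.2%), with cyp2r1 (9.07 and 11.1), cyp4b1.2 (7.54 and 8.81) and cyp4v2.1 (6.96 and 9.64) highest, and cyp11a1, cyp17a1 and cyp19a1, which make steroids, without. Immune genes had 23 of 170 (13.5%), with cd58 beside trim45 (8.77 and 11.7), cd276 beside nptn (9.54 and 8.58) and tnfsf11 (7.44 and 13.2) highest, and c1r, c1s and c2 of the complement system without. Crystallins, keratins and collagens had 13 of 153 (8.50%), with cryba1.2, krt8.1 (8.20 and 8.87) and fbn1 (8.63 and 8.25) highest. At an end acan, bfsp1 and bfsp2 had none. That list, picked by symbol, also took in fbn1, acan, bfsp1 and bfsp2, which belong to none of these families. Muscle contractile genes had 4 of 66 (6.06%), tnnt3, myh9 (6.24 and 5.84) and ryr3 (5.39 and 4.80) among them, although myh9 encodes a myosin of non-muscle cells. The actin genes acta1, acta2 and actc1 had none at an end, and the nearest region to acta1 lay 21636 bp away.

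Of the 37 odorant, taste or trace amine receptor genes that the symbol pattern matched, 0 carried E2F1 at an end. Receptor genes known only by a locus number were not covered. The list of 41 also took in 4 olfactomedin genes, olfm1 to olfm4, which are not receptors and had none at an end either. Replicate 2 alone had E2F1 at 2.44% of the 41, against 53.3% of named genes.

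Of 7024 non-coding genes, 474 (6.75%) had E2F1 at an end. Long non-coding RNA genes had 289 of 2350 (12.3%), which became 84 of 1547 (5.43%) for those at least 3 kb from any protein-coding gene end. Transfer RNA genes had 93 of 2366 (3.93%), small nuclear RNA genes 18 of 614 (2.93%) and ribosomal RNA genes 3 of 463 (0.648%). For those at least 3 kb from protein-coding gene ends, the counts were 51 of 2184 (2.34%), 11 of 561 (1.96%) and 3 of 447 (0.671%). All non-coding genes that far away had 194 of 5698 (3.40%). At the highest tRNA places, a pair of trnal-uag genes on chromosome 6 (130885891 to 130886625) lay under a region with folds of 18.9 and 20.2, and trnag-gcc and trnaa-cgc on chromosome 9 under a region of 13.8 and 11.9. These genes are multi-copy, and reads that match several copies may be placed at any of them.

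Of the microRNA genes 6 of 187 (3.21%) had E2F1 at an end. The highest was mir200a, of a family that guards epithelial identity in mammals, with folds of 11.7 and 13.1 and pileups of 40 and 48. Then came the region beside mir18b and mir106, whose relatives in mammals promote cell proliferation, with folds of 6.41 and 8.53 and pileups of 108 and 168. The regions at mir133d (7.09 and 5.01) and mir130b (4.92 and 5.18) were lower.

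Inside genes, E2F1 regions were mostly solitary. In 2500 genes a region lay within the body, away from every gene end, and 140 of them had 3 or more. The genes with body regions were long, with a median of 55.7 kb against 15.5 kb for all. Long genes have more sequence away from gene ends, so this contrast is partly set by construction. Of the genes with body regions 34.8% also carried E2F1 at an end, beside 34.9% of all protein-coding genes, which are mostly shorter. Among named genes the share was 43.8% at 50 to 100 kb and 39.6% over 100 kb. A share matched for both length and naming was not taken. The most regions were counted in h2ac14, 14 of them, over an annotated span of 1194 kb that is far longer than a histone gene and holds other genes. Next were adgrl3, an adhesion receptor gene, with 13 over 1193 kb, and macrod2 with 10 over 1296 kb. The others, wipi2, csmd1, dlg2, pard3b, pcdh15 and mllt10, had 5 to 8.

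Among these genes with the most regions, bcor, a corepressor of the Polycomb group, had the highest density. It held 9 regions in 98.2 kb, or 9.17 per 100 kb, where adgrl3 had 1.09. Their folds ran from 2.73 to 9.13 in replicate 1 and from 2.44 to 9.10 in replicate 2, and 8 of them were below the map's median fold in at least 1 replicate. None lay at an end of the gene. The local background reached 14.8 and 15.9 fragments within it. Density was not compared over other genes, and short genes can exceed that of bcor: bmp4 held 2 regions in 6.19 kb.

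Of 14497 windows of 100 kb, 8007 (55.2%) held a region and 127 held 5 or more. The 5 densest held 9 each. They were the bcor window, windows on chromosome 6 from 2800000 and from 5200000, a window on chromosome 8 from 118100000, near the highest region of the map, and another on chromosome 9 from 2800000. In the last and in that from 5200000 on chromosome 6, 7 of the 9 regions lay at gene ends, and these windows held 20 and 24 protein-coding genes. In the bcor window and that on chromosome 8, 0 of 9 did. The densest windows thus differed in the share of regions at gene ends. All or nearly all protein-coding genes in the windows on chromosomes 8 and 9 and from 5200000 on chromosome 6 had only locus numbers. The highest folds of the chromosome 8 window, 13.3 and 17.2, were at another small nuclear RNA locus. Whether reads that match several copies enter these counts was not tested.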

How the data were processed

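The 2 E2F1 libraries were described from their deposited peak lists, 1 per library, so peaks were called per sample. Chromatin was prepared with a sonication kit (SimpleChIP Plus, CST) and libraries with the VAHTS Universal DNA kit V3 (Vazyme), per the labels' protocols. Of tools, MACS2 2.2.7.1, Bowtie2 2.4.5, deepTools and fastp are named in the submitters' processing notes, without roles. The sources used here do not state whether a control library was used or how reads matching several places were treated.

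The deposited score of each peak was 10 times the −log10 q-value, cut to a whole number, in 100% of peaks. The deposited fold is the authors' ratio of summit signal to local background, and the deposited −log10 p and −log10 q are those at the summit. The largest q was 0.0492 and 0.0470. These values served only to describe, rank and filter peaks within a list.

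The lists do not give read totals. The whole number of fragments at each summit (pileup) and the local background were solved from fold and p, taking the fold as (pileup + 1) / (background + 1) and p as a Poisson upper tail. The misfit was at most 4.56e-05, and that of the next best whole number at least 0.0742. Apart from the lowest value of each list, backgrounds of the named regions were, up to rounding, whole multiples of a fixed step. The step was the smallest peak width of the list, 268 and 258 bp, over 10 kb. Unscaled fragment counts in 10 kb would give such steps, as where a library serves as its own background. A peak's own fragments would then be part of its background. Pileups cover counting error only, and copies made by amplification are not independent.

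Peaks of both lists sharing at least 1 bp were joined, keeping the summit from whichever peak ranked higher by fold within its list (fold percentile). Gene positions came from the RefSeq table of UCB_Xtro_10.0 (xenTr10), which has no strand, exons or sequences. Coordinates are 1-based. Of the regions, 15 lay on scaffolds and 13201 on the 10 chromosomes. The 34 function lists are symbol patterns. The map, the lists and the naming rule were chosen with earlier results of these data known. No test was made.

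Named were the 15 highest regions by mean fold percentile, the highest of each chromosome, and the 3 highest members of each list. In lists with under 60% carriers, up to 3 members without E2F1 were also named, in alphabetical order. Also named were the 5 widest regions, the 5 highest over 50 kb from any gene end, and the genes and windows with most regions. The E2F and retinoblastoma genes and the earliest zygotic genes were taken whatever their values, and the text gives examples of both. Of non-coding genes those at the 5 highest regions of each kind were candidates. Genes known only by a locus number were counted and not named. A few genes that the rule names are not reported here.

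Alternatives were another overlap, a stricter q, windows of 500 bp and 5 kb, all gene types, lists of equal length and each replicate alone. Scripts (Python 3.11.15, pandas 2.3.3, SciPy 1.17.1) were tested on simulated data.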

Additional observations from a re-analysis of the deposited data

How the results depend on the processing

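The number of regions ran from 16770 to 20385 with either replicate list alone, against 13216 joined. The share at gene ends was 41% to 44.6% with either list alone, the share inside genes 27.8% to 29.6%, the share far from genes 17.9% to 19%, and the median density over chromosomes 11.4 to 14 regions per Mb, against 9.13 in the joined map. With a −log10 q of at least 5 these were 56.5%, 21.5%, 13.4% and 6.67 per Mb. A window of 500 bp gave 46.7% at gene ends and 27.8% inside genes, and one of 5 kb gave 63.1% and 17.9%. With all gene types 13.2% lay far from genes. With high-background peaks left out, a choice made after seeing the data, the values were 47.7%, 26%, 17.8% and 6.91 per Mb. The cause of these shifts was not tested, apart from those that a wider or narrower window makes by construction. Of the 34 function lists, 30 stayed on the same side of the share of named genes under all settings run. The exceptions were histones (a stricter q, replicate 2 alone, and no high background), maternal transcription factors (no high background), and the earliest zygotic and hox genes (5 kb). The ranking by pileup in place of fold was also added after seeing the data. The planned search of promoters for E2F words was not run, since no sequence was used. No paired analysis was possible because no result comes from a test.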
